A study of Mus musculus with 8 samples.

Results

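The chromatin of control haematopoietic stem cells (HSCs), the marrow cells from which all blood lineages descend, was described by the combination of 3 histone marks called at each place. The 4 WT libraries of the 8 in the series were used, and no genotypes were compared. Peaks of H3K4me1 replicate 2, H3K4me3 and H3K27ac, which share a run tag in their peak names, were merged where they overlapped by at least 1 bp. This gave 154544 regions over 128 Mb, and each region was placed in 1 of 7 combinations by the marks called in it. H3K4me1 replicate 1, which carries another run tag, served as the check. Each library came from HSCs of C57BL/6 mice aged about 10 months, sorted as Lin-cKit+Sca1+CD48-CD150+ cells, and the cells of 4 or 5 mice were pooled to give 7500 HSCs per assay. The protocol text describes the WT mice as Rxrabfl/fl, mice with floxed Rxra and Rxrb (the retinoid X receptor alpha and beta genes), whereas the genotype entry of the same samples reads VavCre+; WT. CUT&RUN was the assay: antibody-tethered MNase cuts around marked nucleosomes in intact cells or nuclei, and the fragments set free are sequenced. H3K4me1 is the only mark with 2 WT libraries, and no label says that they came from separate pools of mice. The other marks have 1 library each, so every share below describes these libraries and no test was possible.

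H3K4me1 is laid down on enhancers and on the flanks of promoters, where it can be present before a gene is active. H3K4me3 sits on the first nucleosomes of genes, above all at CpG-rich promoters, whether or not the gene is strongly transcribed. H3K27ac is added by the acetyltransferases p300 and CBP and is removed readily, so that it accompanies promoters and enhancers in use.

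The peak lists held 149377 peaks over 113 Mb and 159713 peaks over 118 Mb in H3K4me1 replicates 1 and 2, 47835 peaks over 45.5 Mb in H3K4me3 and 74287 peaks over 47.1 Mb in H3K27ac. The lists give no read totals, so depth is unknown and no counting interval is given. A peak's fold is the authors' ratio of its height to the local background, and it is used only within 1 list. The height (pileup, in whole fragments) and the local background were recovered from the fold and the -log10 p of each peak, and the most frequent background value was 5.62 and 7.37 in H3K4me1 replicates 1 and 2, 4.12 in H3K4me3 and 4.77 in H3K27ac.

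The libraries stood apart at Vav1, a signalling gene of blood cells whose regulatory DNA drives Cre in Vav-Cre mice. An element on chromosome 17 from 57289512 to 57291622 (mm10), inside the gene and 11.3 kb from its lower annotated end, had a pileup of 1824 in H3K4me1 replicate 2, the highest of its 159713 peaks and 26.4 times the library's median. It had 1124 in H3K27ac, the highest of 74287 peaks, and 981 in H3K4me3, the second highest of 47835. In H3K4me1 replicate 1 the same element had a pileup of 130, which ranked 9846 of 149377 and was 2.32 times the median. A further element 2.16 kb before that end had 753 in H3K4me1 replicate 2 (rank 2) and 126 in replicate 1 (rank 11430). The 3 libraries of one run were thus high at Vav1 and the library of the other run was not, and the part of a transgene in this was not tested. Below, Vav1 is met again only as 1 of the regions of highest H3K4me3. The labels disagree on Cre in these mice, and whether the WT label of the libraries is right in that respect was not tested, which bears on every value given here for control HSCs. Rxra and Rxrb each had a start with all 3 marks.

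The sorted cell type was checked against its markers, using the marks within 1 kb of each gene start or, where the start table had no entry, of the better marked annotated end. All 10 HSC markers, among them Kit, Ly6a, Slamf1, Procr, Mecom, Hlf, Fgd5, Meis1 and Hoxa9, had H3K4me3, and 7 had all 3 marks. Over all genes with a listed start, H3K4me3 was at 67.1%, all 3 marks at 59.9% and no mark at 28.3%. The 7 of 10 with all 3 marks were thus near the share of all genes. None of the 5 lymphocyte markers had H3K4me3, and Cd3e, Cd8a, Ms4a1 and Cd79a had no mark, although other lymphocyte genes outside these 5 (Ebf1, Cd4 and Cd79b) had all 3 marks. None of the 6 granulocyte and monocyte markers had H3K4me3, and Ly6g, Elane and S100a8 had no mark, although Csf3r and Ltf, outside these 6, had all 3 marks and Prtn3 had H3K4me3. All 3 megakaryocyte markers (Pf4, Gp9 and Gp1ba) and 3 of 4 erythroid markers had all 3 marks, and 4 of 5 stromal and endothelial markers had H3K4me3. Whether these last marks came from HSCs or from other cells in the sort was not tested.

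The sequences before 6 gene starts are printed as examples of the combinations, since CpG number differed between the combinations. Each line gives the 250 bases that end at the base before the start, 5′ to 3′ on the gene's strand, from RefSeq (GRCm38.p6), and capitals mark CG dinucleotides. Kit (chr5:75574737-75574986, plus strand) had all 3 marks, Hlf (chr11:90390918-90391167, minus strand) and Pax6 (chr2:105668646-105668895, plus strand) had H3K4me1 and H3K4me3, Rag1 (chr2:101649533-101649782, minus strand) had H3K4me1 and H3K27ac, Itgam (chr7:128062390-128062639, plus strand) had H3K4me1 alone, and Elane (chr10:79886062-79886311, plus strand) had no mark.
Kit: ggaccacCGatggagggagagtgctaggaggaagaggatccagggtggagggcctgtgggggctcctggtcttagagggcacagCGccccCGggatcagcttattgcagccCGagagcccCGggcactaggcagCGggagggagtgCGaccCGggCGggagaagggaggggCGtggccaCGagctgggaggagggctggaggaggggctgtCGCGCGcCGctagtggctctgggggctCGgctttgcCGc
Hlf: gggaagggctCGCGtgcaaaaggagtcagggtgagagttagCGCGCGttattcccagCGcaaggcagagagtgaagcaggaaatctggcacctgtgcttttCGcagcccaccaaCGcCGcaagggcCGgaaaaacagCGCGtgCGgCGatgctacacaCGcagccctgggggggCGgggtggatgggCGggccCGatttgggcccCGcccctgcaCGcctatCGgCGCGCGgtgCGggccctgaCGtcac
Pax6: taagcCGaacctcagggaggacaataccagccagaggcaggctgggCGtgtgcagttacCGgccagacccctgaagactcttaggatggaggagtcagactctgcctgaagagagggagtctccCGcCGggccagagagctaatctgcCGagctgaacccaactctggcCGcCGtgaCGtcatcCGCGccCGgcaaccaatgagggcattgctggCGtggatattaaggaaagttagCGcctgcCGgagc
Rag1: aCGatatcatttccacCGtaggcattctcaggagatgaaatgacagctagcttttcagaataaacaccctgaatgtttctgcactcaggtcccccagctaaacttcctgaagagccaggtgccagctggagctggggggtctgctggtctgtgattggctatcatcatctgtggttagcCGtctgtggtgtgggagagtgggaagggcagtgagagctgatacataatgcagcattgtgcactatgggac
Itgam: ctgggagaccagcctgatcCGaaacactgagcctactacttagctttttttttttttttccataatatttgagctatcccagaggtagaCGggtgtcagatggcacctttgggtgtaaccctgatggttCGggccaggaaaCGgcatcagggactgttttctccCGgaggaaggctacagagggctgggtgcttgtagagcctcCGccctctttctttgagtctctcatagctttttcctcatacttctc
Elane: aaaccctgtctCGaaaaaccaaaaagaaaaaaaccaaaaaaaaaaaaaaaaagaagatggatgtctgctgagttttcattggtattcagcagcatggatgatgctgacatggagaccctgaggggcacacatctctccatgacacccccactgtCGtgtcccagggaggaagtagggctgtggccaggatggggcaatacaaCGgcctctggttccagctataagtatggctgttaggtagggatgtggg
These 250 bases held 17 CG dinucleotides before Kit, 26 before Hlf and 15 before Pax6, the genes with H3K4me3. They held 3 before Rag1, 6 before Itgam and 3 before Elane, the genes without it. These are examples only, and some HSC genes with H3K4me3 had few CG dinucleotides, as given below. Kit encodes the stem cell factor receptor, Hlf a transcription factor of HSCs, Pax6 an eye and brain regulator, Rag1 a recombinase of lymphocytes, Itgam an integrin of myeloid cells and Elane the neutrophil elastase.

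H3K4me1 alone was the most frequent combination, with 79102 regions (51.2%), and all 3 marks together came next with 38879 (25.2%). H3K4me1 with H3K27ac, the combination of active enhancers, made 26948 regions (17.4%), and H3K4me1 with H3K4me3 made 6763 (4.38%). The combinations without H3K4me1 were few, at 1590 regions with H3K27ac alone (1.03%), 966 with H3K4me3 alone (0.625%) and 296 with H3K4me3 and H3K27ac (0.192%). With replicate 1 as the H3K4me1 library the frequent combinations had 70178, 38515, 25861 and 6366 regions in the same order. The rare ones grew to 2565 with H3K27ac alone, 1407 with H3K4me3 alone and 677 with H3K4me3 and H3K27ac, so the size of these sets depended on which H3K4me1 library was used. The order also depended on the number of peaks: with the same number of peaks per mark, all 3 marks led with 26432 regions and H3K4me1 alone had 8055, fewer than H3K4me3 alone with 8150.

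**Figure D1:**
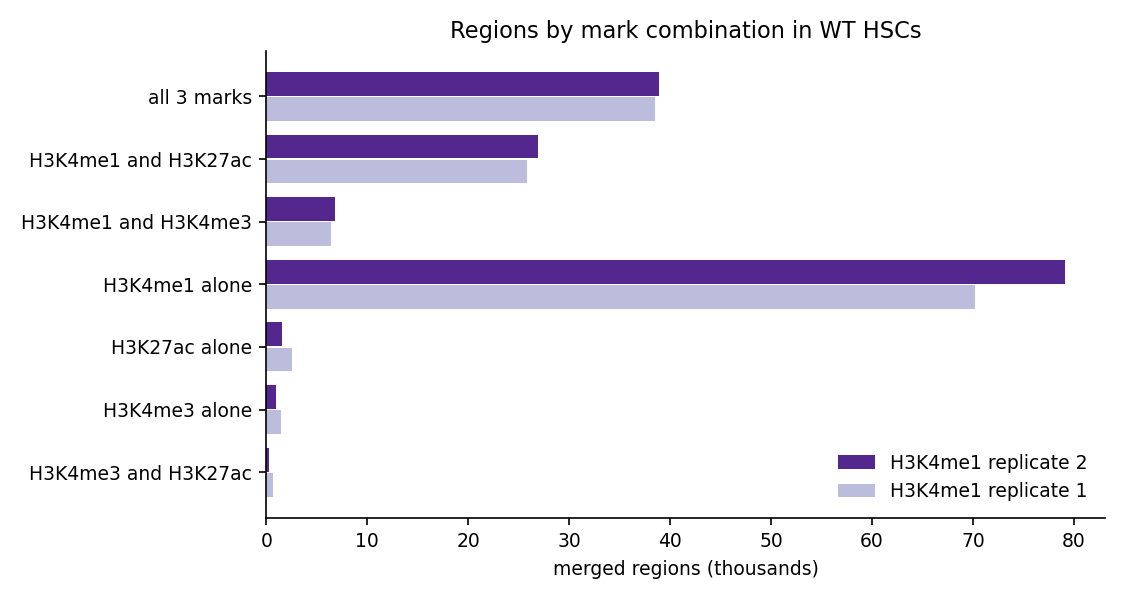
Number of merged regions (horizontal axis, in units of 1000) in each mark combination (vertical axis) in WT HSCs, with H3K4me1 from replicate 2 (dark bars) or replicate 1 (light bars). H3K4me1 alone is the longest bar with either library (79102 and 70178 regions), and the combinations without H3K4me1 hold at most 2565 regions each.

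Regions with H3K4me1 and other marks were longer than those with H3K4me1 alone. The median length was 382 bp for H3K4me1 alone, 871 bp for H3K4me1 with H3K27ac, 872 bp for H3K4me1 with H3K4me3 and 1374 bp for all 3 marks, against 258 bp for H3K27ac alone and 398 bp for H3K4me3 alone. A merged region spans all its peaks and a long region has more room for several, so the marks were also counted by base. Of all marked bases, 49.8% carried H3K4me1 alone, 20.0% all 3 marks, 13.5% H3K4me1 with H3K27ac, 8.87% H3K4me1 with H3K4me3, 4.45% H3K4me3 alone, 2.33% H3K4me3 with H3K27ac and 1.05% H3K27ac alone. H3K4me3 without H3K4me1 thus held a larger share of bases than of regions.

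The overlaps were unequal between marks. Of the H3K4me3 peaks 97.3%, and of the H3K27ac peaks 96.4%, overlapped H3K4me1, while 33.3% and 44.0% of H3K4me1 peaks overlapped H3K4me3 and H3K27ac. H3K27ac was at 82.7% of H3K4me3 peaks, and H3K4me3 was at 58.2% of H3K27ac peaks. Few overlaps were marginal: 0.398% of the H3K4me1 peaks that overlapped H3K27ac, 0.536% of those that overlapped H3K4me3, and 0.172% of the H3K4me3 peaks that overlapped H3K27ac shared under 50 bp. In regions with all 3 marks the H3K4me1 and H3K27ac summits lay a median of 66 bp apart away from gene starts and 85 bp apart within 1 kb of one. The H3K4me1 and H3K4me3 summits lay 82 and 168 bp apart.

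The second H3K4me1 library gave a check of each combination. Replicate 1 also called H3K4me1 in 98.9% of the regions with all 3 marks, 95.7% of those with H3K4me1 and H3K27ac, 91.7% of those with H3K4me1 and H3K4me3 and 74.7% of those with H3K4me1 alone. Of the 79102 regions with H3K4me1 alone, 20033 were not called in replicate 1. Where replicate 2 had no H3K4me1, replicate 1 called it in 18.0% of the regions with H3K27ac alone, 17.5% of those with H3K4me3 alone and 22.3% of those with H3K4me3 and H3K27ac. H3K4me1 was therefore called in both libraries most often where other marks accompanied it. A long region has more room for a peak, and the median length was 1374 bp with all 3 marks and 382 bp with H3K4me1 alone. At a fold of at least 4 the share was 89.2% with all 3 marks and 94.6% with H3K4me1 and H3K27ac. It was then 83.6% with H3K4me1 and H3K4me3 and 76.6% with H3K4me1 alone, so all 3 marks no longer led.

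The authors' fold of H3K4me1 also differed between combinations. Its median was 3.03 in H3K4me1 alone, 4.54 with H3K4me3, 5.17 with H3K27ac and 5.71 with all 3 marks. In replicate 1, over the regions it called, it was 3.47, 4.27, 5.29 and 5.27. With the regions rebuilt from replicate 1 it was 3.16, 4.23, 5.24 and 5.26, so all 3 marks stood above H3K4me1 with H3K27ac in replicate 2 and the 2 were nearly level in replicate 1. The median H3K27ac fold was 3.42 with H3K4me1, 4.74 with all 3 marks and 2.90 alone. The median H3K4me3 fold was 4.58 with H3K4me1, 6.64 with all 3 marks and 3.32 alone. The 296 regions with H3K4me3 and H3K27ac had a median H3K4me3 pileup of 208.5 but a local background of 47.6, against 69 and 7.72 in regions with all 3 marks, so their median fold was 4.08. They lay close to other regions, with 82.8% within 1 kb of a neighbour.

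Position relative to genes separated the combinations by H3K4me3. Within 1 kb of a gene start lay 53.0% of the regions with H3K4me3 and H3K27ac, 36.2% of those with all 3 marks, 32.8% of those with H3K4me3 alone and 32.5% of those with H3K4me1 and H3K4me3. This share was 4.91% for H3K4me1 alone, 4.33% for H3K4me1 with H3K27ac and 2.70% for H3K27ac alone. The distal regions with H3K4me1 and H3K27ac lay a median of 21.6 kb from the nearest start, those with H3K4me1 alone 19.4 kb, and those with all 3 marks 17.7 kb. Of the distal regions with H3K4me1 and H3K27ac 59.3% lay inside a gene, as did 54.2% of those with all 3 marks and 80.3% of those with H3K27ac alone. Of the regions with H3K4me1 alone 44.7% lay within 1 kb of another region, beside 38.7% of those with all 3 marks, 40.0% with H3K4me1 and H3K4me3, 63.7% with H3K4me3 alone and 82.8% with H3K4me3 and H3K27ac.

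**Figure D2:**
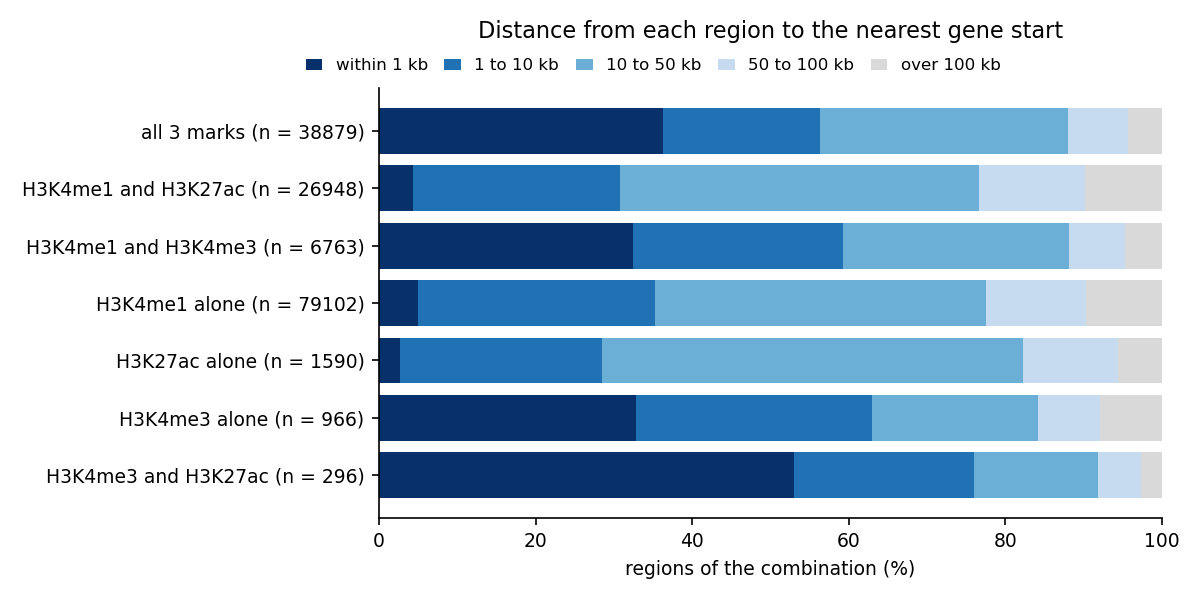
Share of the regions of each combination (horizontal axis, %) by distance to the nearest gene start, from within 1 kb (darkest) to over 100 kb (grey), with the number of regions beside each bar. The 4 combinations with H3K4me3 have 32.5% to 53.0% of their regions within 1 kb of a start, and the other 3 have 2.70% to 4.91%.

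Most regions with all 3 marks were nevertheless distal. Of the 38879, 24788 (63.8%) lay over 1 kb from every annotated start, and 21227 lay over 5 kb away. H3K4me3 differed between the 2 places: its median fold was 8.15 near starts and 5.79 in distal regions, its median pileup 260 and 39, and its median covered length 1492 and 657 bp. H3K4me1 did not fall in the same way, with a median fold of 5.66 near starts and 5.73 in distal regions in replicate 2 (pileup 130 and 131), and of 4.74 and 5.61 in replicate 1. H3K27ac lay between, with a fold of 5.13 and 4.54. The distal regions with all 3 marks thus carried a low and narrow H3K4me3 peak beside H3K4me1 of a fold no lower than at starts in either library. Replicate 1 called H3K4me1 in 99.3% of them.

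The strongest and longest regions of each combination lay at these genes. Among regions with all 3 marks the highest H3K4me3 -log10 q was 634, at the start of Hjurp (a centromere histone chaperone) on chromosome 1 from 88275781 to 88277976, followed by the Vav1 element and the start of Spr, an enzyme of biopterin synthesis. In each of the 4 libraries a peak nearest Hjurp was among the 3 of highest pileup. In this region the local background was 100 in H3K4me3 and 66.2 in H3K27ac, against library medians of 7.32 and 7.67. Whether the locus is raised whatever the mark was not tested. The longest region with all 3 marks, of 5755 bp, covered the start of Phf21b on chromosome 15, and those after it covered the starts of Smad3 (a TGF-beta signal transducer) and Patz1 (a zinc finger protein). Among regions with H3K4me1 and H3K27ac the highest H3K27ac -log10 q were 2323 bp from the start of Ythdf2 (an RNA methylation reader), 2557 bp from that of Gdf15 and 3614 bp from that of Abhd15. Long regions of this combination, of 3274 and 3260 bp, lay inside Sox5 and Itpk1. Among regions with H3K4me1 alone the highest H3K4me1 -log10 q were inside Muc5b (an airway mucin), Dnaic1 (a ciliary dynein) and Rbfox3 (a neuronal splicing factor), genes of other tissues, with folds of 14.6, 15.2 and 11.4 in replicate 2 and 14.3, 14.4 and 11.5 in replicate 1.

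The highest H3K4me3 -log10 q among regions with H3K4me1 and H3K4me3 were at the start of Slc1a1 (a glutamate transporter), 15249 bp from that of H2-Q4, and at that of Hivep3. With H3K4me3 alone they were 637 bp from the start of Luzp1, 242 bp from that of 5031439G07Rik and 228 bp from that of Nol4l. Replicate 1 called H3K4me1 in the region at 5031439G07Rik, with a fold of 2.45. With H3K4me3 and H3K27ac they were inside Zfp978, at the start of Zbtb8a and 33919 bp from that of Vmn2r82. Their H3K4me3 folds were 26.95, 8.57 and 25.4, against a median of 4.08 in this combination. Replicate 1 called H3K4me1 in the Zbtb8a region, with a fold of 2.33. The longest of this combination were at Arhgef2, Cxxc5 and Msl2, at 4038, 3441 and 3357 bp. Replicate 1 called H3K4me1 in those at Arhgef2 and Msl2, with folds of 2.54 and 1.59. With H3K27ac alone the highest H3K27ac -log10 q were inside Erg, Plcg2 and Pank1, at folds of 3.09, 2.67 and 4.35, and replicate 1 called H3K4me1 in each of these with folds of 1.80, 1.94 and 1.82. The longest with H3K27ac alone, of 1246, 816 and 765 bp, lay near Elobl, Dnajc2 and Nfx1. Replicate 1 called H3K4me1 in the region near Elobl, with a fold of 3.78, and not in those near Dnajc2 and Nfx1.

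At gene starts the marks mostly came together. The start table covered 17274 of 21631 protein-coding genes with 21045 starts, and a gene was described by its start with the most marks. All 3 marks lay within 1 kb of the start of 10354 genes (59.9%), no mark at 4891 (28.3%), H3K4me1 and H3K4me3 at 1115 (6.45%), H3K4me1 alone at 573 (3.32%) and H3K4me1 with H3K27ac at 218 (1.26%). H3K4me3 and H3K27ac without H3K4me1 lay at 62 genes, H3K4me3 alone at 58 and H3K27ac alone at 3. By mark, H3K4me1 was at 71% of genes, H3K4me3 at 67.1% and H3K27ac at 61.6%. A start with H3K4me3 thus had H3K27ac in most cases, and the reverse also held. Replicate 1 called H3K4me1 at 96.6% of the starts with all 3 marks and at 1.03% of those with no mark.

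Around starts with all 3 marks the peaks were ordered along the gene. H3K4me3 covered the start itself at 94.7% of these 12354 starts and stayed at 93.8% at 250 bp and 89.1% at 500 bp into the gene. H3K27ac was highest at the start (83.8%) and was 56.7% at 500 bp. H3K4me1 was highest 100 bp before the start, at 89.6% in replicate 2 and 76.4% in replicate 1. It had fallen to 71.6% and 52.5% at 250 bp into the gene. In replicate 1 it was 45.8% at 500 bp and 46.7% at 1000 bp, past the point where H3K4me3 had begun to fall, and replicate 2 went from 57.5% to 44.4%. Before the start, H3K4me3 was at 19.4% at 1000 bp and H3K27ac at 12.7%, against 50.2% and 20.9% at 1000 bp into the gene, so every mark reached further into the gene than before it. At the 1452 starts with H3K4me1 and H3K4me3, H3K4me1 stayed at 70.8% in replicate 2 at 250 bp into the gene, 58.7% in replicate 1, and H3K4me3 at 75.1%.

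**Figure D3:**
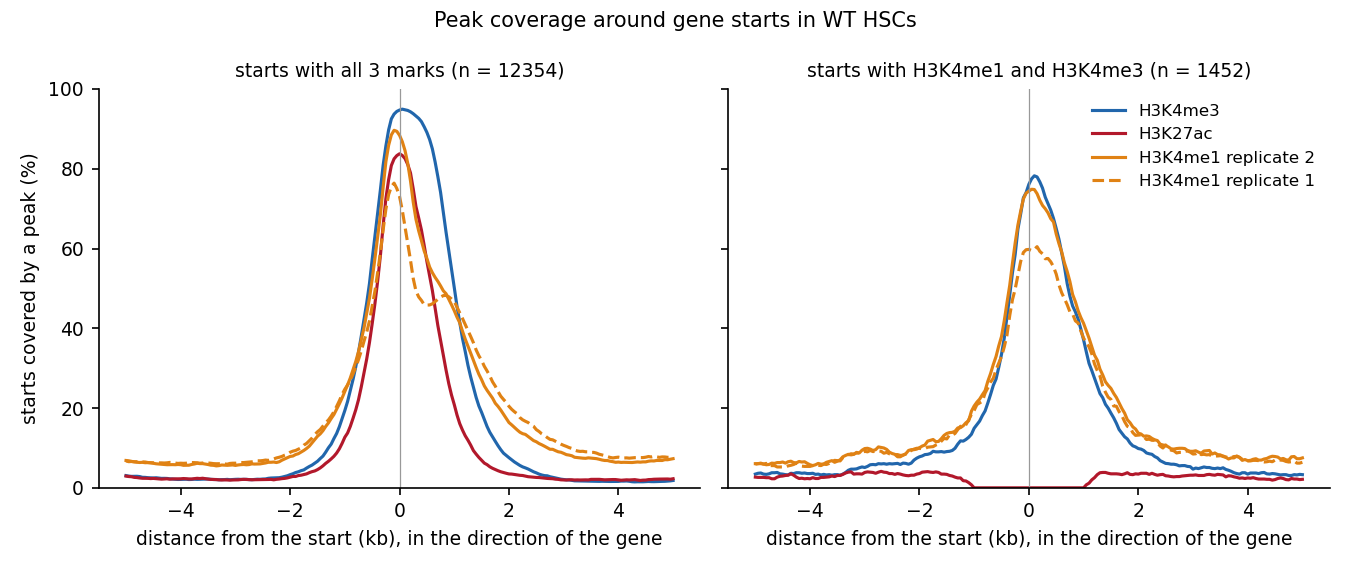
Share of gene starts covered by a peak of each mark (vertical axis, %) by distance from the start in the direction of the gene (horizontal axis, kb), for starts with all 3 marks (left) and with H3K4me1 and H3K4me3 (right); blue is H3K4me3, red H3K27ac, solid orange H3K4me1 replicate 2 and dashed orange replicate 1. On the left H3K4me3 stays above 89% to 500 bp into the gene while H3K4me1 has fallen to 57.5% and 45.8%. On the right H3K4me1 replicate 2 runs close to H3K4me3. Replicate 1 lies lower there, at 58.7% against 75.1% for H3K4me3 at 250 bp into the gene. H3K27ac is 0 within 1 kb on the right because the starts were chosen so.

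The median CpG number at the start was higher in every combination with H3K4me3 than in those without it. In the 300 bases from 250 before to 50 after the start, the median number of CG dinucleotides was 21 at starts with all 3 marks, 17 with H3K4me1 and H3K4me3, 17 with H3K4me3 alone and 28 with H3K4me3 and H3K27ac. It was 4 with H3K4me1 alone, 4 with H3K4me1 and H3K27ac, and 2 with no mark, against 13 over all 21045 starts. Read the other way, H3K4me3 was at 8.79% of starts with 0 to 2 CG dinucleotides, 28.5% with 3 to 5, 58.3% with 6 to 10, 89.6% with 11 to 15 and 99.1% with 31 or more. H3K4me1 was more frequent than H3K4me3 at CpG-poor starts, at 17.8% and 42.6% of those with 0 to 2 and 3 to 5. Among starts with H3K4me3, the share without H3K27ac ranged from 8.24% at 21 to 30 CG dinucleotides to 17.7% at 6 to 10. Kit, Hlf and Pax6, with their many capitals above, have 20, 30 and 18 CG dinucleotides in these 300 bases. HSC genes with H3K4me3 varied widely. Myb had 40 and Fgd5 37, whereas Tek had 3, Slamf1 and Hoxa9 had 4 each, and the 2 Runx1 starts had 2 and 35.

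**Figure D4:**
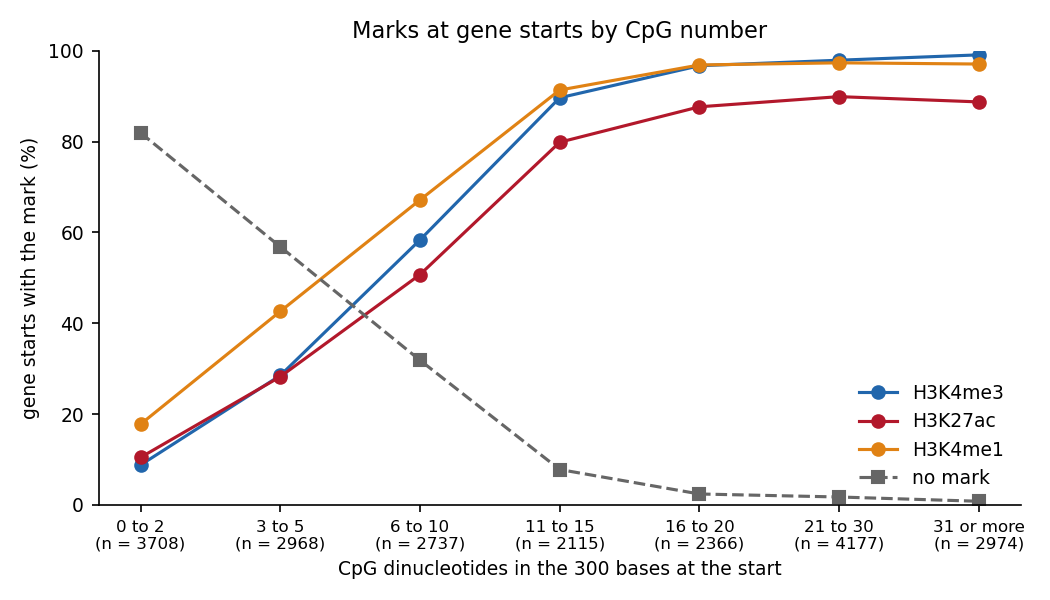
Share of gene starts with each mark within 1 kb (vertical axis, %) by the number of CG dinucleotides in the 300 bases at the start (horizontal axis, with the number of starts in each class). H3K4me3 goes from 8.79% at 0 to 2 to 99.1% at 31 or more, and starts with no mark (dashed) go from 81.9% to 0.807%.

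Short motifs were searched on both strands of the same 300 bases, and none of the 6 contains another. The GC box GGGCGG was at 65.4% of starts with all 3 marks and 9.30% of those with no mark (46.7% of all starts). The TATA box TATAAA was at 6.47% and 26.4% (12.7% of all). The ETS motif GGAAGT was at 28.0% of starts with all 3 marks, 29.5% of those with H3K4me1 and H3K27ac and 14.5% of those with H3K4me1 and H3K4me3 (24.97% of all). The GATA box AGATAA was at 5.93% with all 3 marks, 14.4% with H3K4me1 and H3K27ac and 17.6% with no mark (9.68% of all). The CCAAT box CCAAT was at 37.6% with all 3 marks and 42.4% with no mark (38.5% of all), and the E-box CATGTG at 7.56% and 19.6% (11.6% of all). Base composition differs between these sets of starts, and its part in the motif shares was not tested.

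Genes that every cell uses mostly had all 3 marks, at 18 of 18 housekeeping genes with a listed start and 54 of 55 cytoplasmic ribosomal protein genes, beside 59.9% of all genes. Inducible genes did too, with 15 of 15 interferon response genes. Rps15a had H3K4me3 and H3K27ac only. With replicate 1 as the H3K4me1 library, 50 of the 55 ribosomal protein genes had all 3 marks. At an annotated end, 19 of the 21 other ribosomal protein genes and 5 of the 6 other housekeeping genes had all 3. Of the immediate early genes, which respond within minutes to a stimulus, 16 of 17 had all 3 marks, and Zfp36, an RNA decay factor, had H3K4me1 and H3K4me3. The interferon genes included Stat2, Irf7, Ifit1, Isg15, Bst2 and Gbp2, whose products act against viruses. Their median H3K4me3 fold was 8.22, against 8.21 over all genes.

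HSC surface and receptor genes had all 3 marks at 13 of 13 starts, beside 59.9% of all genes: Kit, Slamf1 (CD150), Procr (the endothelial protein C receptor), Tek (the angiopoietin receptor), Fgd5, Cd34, Flt3, Itga2b, Cd27, Cd9, Cxcr4 (the CXCL12 receptor), Ptprc (CD45) and Itga4. Ly6a (Sca1), Esam, Itgb3 and Angpt1, which have no listed start, had all 3 marks at an annotated end. At Kit the window of 1 kb on either side of the start held 718 bp of H3K4me1 in replicate 2, 689 bp in replicate 1, 1567 bp of H3K4me3 and 431 bp of H3K27ac. At Flt3, the receptor of a cytokine for early progenitors, it held 1633, 1656, 1590 and 758 bp. At Cd34, a surface sialomucin, it held 422 bp in replicate 2 and 0 in replicate 1, with 1313 bp of H3K4me3 and 497 bp of H3K27ac. Kit and Flt3 were thus marked alike in both H3K4me1 libraries and Cd34 was not.

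HSC transcription factors all had H3K4me3 at the start, beside 67.1% of all genes, and 14 of 20 had all 3 marks, a share near the 59.9% of all genes. These were Tal1, Lyl1, Gata2, Runx1, Erg, Meis1, Hoxb4, Gfi1, Gfi1b, Etv6, Myb, Ikzf1, Cbfb and Ldb1. Lmo2, Fli1 and Spi1 had all 3 at an annotated end. Hoxa9, Hlf and Nkx2-3 had H3K4me1 and H3K4me3, Bmi1 (a Polycomb subunit) had H3K4me3 alone, and Mecom and Prdm16 had H3K4me3 and H3K27ac. Mecom has 2 listed starts: the outer, at 30509759 on chromosome 3, had H3K4me1 and H3K4me3, and the inner, at 30013204, had H3K4me3 and H3K27ac.

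At Tal1, a master regulator of blood formation, the window held 754 bp of H3K4me1 in replicate 2 and 0 in replicate 1, 1076 bp of H3K4me3 and 1208 bp of H3K27ac. At Runx1, which is needed for HSCs to arise, it held 679, 877, 1325 and 1353 bp. At Meis1, a HOX cofactor, it held 295, 0, 1184 and 538 bp. At Hlf it held 883 and 495 bp of H3K4me1, 1190 bp of H3K4me3 and no H3K27ac. H3K4me3 thus covered less of the window at Tal1, Runx1 and Meis1 than the median of 1419 bp of genes with all 3 marks. The same held at Lyl1, Erg, Hoxb4, Gfi1b and Ikzf1. It covered more at Gfi1, Myb, Gata2, Ldb1, Etv6 and Cbfb, from 1481 bp at Cbfb to 1810 bp at Gfi1, so the factors lay on both sides. At Hlf it covered more than the median of 1077 bp of genes with H3K4me1 and H3K4me3. H3K4me1 at Tal1 and Meis1 was called in 1 of 2 libraries. With replicate 1 in place of replicate 2, 12 of the 20 transcription factors and 12 of the 13 surface genes had all 3 marks.

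The peaks at HSC transcription factor starts stood on a higher local background than those of all genes, with similar H3K4me3 and H3K27ac heights. Their median H3K4me3 pileup was 278, against 271 over all genes with a peak, while the local background was 96.1 against 30.3 and the fold 3.11 against 8.21. H3K27ac had a pileup of 71.5 against 65, a background of 26.1 against 10.6 and a fold of 2.90 against 5.34. H3K4me1 had a pileup of 101 against 124, a background of 37.2 against 20.6 and a fold of 2.80 against 5.66. At Gata2 the H3K4me3 pileup was 387 on a background of 185, a fold of 2.09, and at Nkx2-3 it was 329 on 172, a fold of 1.91. At Cbfb, the partner of Runx1, it was 312 on 49.1, a fold of 6.25. A threshold on fold therefore removed these genes: at a fold of at least 4 in each mark, 1 of the 20 transcription factors (Cbfb) and 1 of the 13 surface genes (Flt3) kept all 3 marks, beside 41.3% of all genes. For H3K4me3 by itself at that fold, it was 3 of 20 and 11 of 13, beside 63.5% of all genes.

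The transcription factor loci were rich in distal acetylated regions. In the gene body and 50 kb on either side, the 24 genes had a median of 7.06 distal regions with H3K4me1 and H3K27ac (with or without H3K4me3) per 100 kb, with quartiles of 6.03 and 8.40. The median over all 21631 coding genes was 2.36, with quartiles of 0.764 and 4.43, and that of the 18 surface and receptor genes was 5.39. That of the 20 immediate early genes was 6.47, with quartiles of 3.94 and 8.46, and that of the 19 interferon response genes was 4.80. A high density was thus not particular to the transcription factor loci. Mecom had 55 such regions over 658 kb, Prdm16, a regulator of HSC maintenance, 36 over 421 kb, Etv6 31 over 334 kb and Runx1 24 over 325 kb, whereas Gfi1b had 3 over 113 kb. Together the 24 windows held 1097 regions, of which 24.6% had all 3 marks and 50.1% H3K4me1 alone, beside 25.2% and 51.2% of all regions. The makeup was thus near that of the whole genome while the density was higher.

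The 3 distal acetylated regions of highest H3K27ac -log10 q were listed for each of the 20 transcription factors with a start. Of these 60 regions 54 had all 3 marks, 20 lay in the gene itself, and replicate 1 called H3K4me1 in all 60. Among all distal acetylated regions 24788 had all 3 marks and 25782 had H3K4me1 and H3K27ac, with a median H3K27ac -log10 q of 14.3 and 5.95, so choosing by that value itself favours all 3 marks. At Tal1 on chromosome 4 they lay 19.1, 39.4 and 47.4 kb downstream of the start, and enhancers downstream of Tal1 are known in stem cells and red cell precursors. At Runx1 the first lay 205 kb into the gene and the second, on chromosome 16 from 92800517 to 92802310, 24.3 kb into it, in the intron stretch where an HSC enhancer is known. At Lyl1 they lay 11.1 kb downstream, 44.4 kb upstream and 36.3 kb downstream, at Hlf 27.1 kb upstream and 35.3 and 25.5 kb downstream, and at Gata2 55.5 and 30.7 kb downstream and 13.9 kb upstream. At Kit, a surface gene whose regions are not among these 60, they lay 132, 120 and 14.9 kb downstream. In the last of these the H3K4me1 fold was 1.87 in replicate 2, and replicate 1 called no H3K4me1. The region may belong to another gene nearby, since no contact data were used.

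Lymphocyte genes and granulocyte and monocyte genes mostly lacked H3K4me3. It was at 1 of 14 and 3 of 16 starts, beside 67.1% of all genes. These genes differed in what else they had, beside 1.26% of all genes with H3K4me1 and H3K27ac and 3.32% with H3K4me1 alone. Of 14 lymphocyte genes 1 had all 3 marks (Ebf1, a B cell factor), 4 had H3K4me1 and H3K27ac (Lck, Rag1, Il7r and Cd48), 3 had H3K4me1 alone (Pax5, Rag2 and Klrb1c) and 6 had no mark (Cd3e, Cd3g, Cd3d, Cd8a, Cd79a and Ncr1), beside 28.3% of all genes with no mark. At Rag1 the window held 860 and 798 bp of H3K4me1 in replicates 2 and 1, 421 bp of H3K27ac and no H3K4me3. At Cd48, whose product is absent from the sorted cells by the gate, it held 1449 and 1444 bp of H3K4me1 and 330 bp of H3K27ac. Of the genes without a listed start, Cd4 and Cd79b had all 3 marks at an annotated end and Ms4a1 had no mark. Rag1 and Cd48 thus had acetylated, H3K4me1-marked starts in both H3K4me1 libraries without H3K4me3.

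Of 16 granulocyte and monocyte genes 2 had all 3 marks (Csf3r, the G-CSF receptor, and Ltf, lactoferrin), 3 had H3K4me1 and H3K27ac (Mpo, the myeloperoxidase gene, Cx3cr1 and Ccr2), 2 had H3K4me1 alone (Itgam and Fcgr3), Prtn3 had H3K4me1 and H3K4me3, and 8 had no mark, beside 59.9% of all genes with all 3 marks and 28.3% with none. Elane, Ctsg, Camp, Ngp and Lcn2, genes of neutrophil granules, and the calprotectin genes S100a8 and S100a9 were among the last. Not all granule genes were, since Mpo, Prtn3 and Ltf had marks. At Mpo the window held 1055 and 1420 bp of H3K4me1 in replicates 2 and 1 and 429 bp of H3K27ac. At Ccr2 the H3K27ac covered 23 bp of the window, and at Ltf the H3K4me3 pileup was 17 on a background of 4.12. Csf1r and Cebpe had the same combination as Mpo at an annotated end. Prtn3 lies next to Elane, and its H3K4me3 covered 179 bp.

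Erythroid and megakaryocyte genes had all 3 marks at 8 of 16 starts, beside 59.9% of all genes: Klf1 and Epor (a transcription factor and the erythropoietin receptor), Tfrc, Epb42, Pf4, Gp1ba, Gp9 and Itga2b. At Gp9, a platelet receptor subunit, the window held 1469 and 1362 bp of H3K4me1, 1395 bp of H3K4me3 and 1330 bp of H3K27ac. At Klf1 it held 1081, 913, 599 and 327 bp. The globin genes Hbb-bs, Hba-a1 and Hba-a2 had no mark, and Hbb-bt, Alas2 and Ppbp had H3K4me1 alone. The near-identical globin copies may share reads, and their values are uncertain. Of the stromal and endothelial genes 7 of 11 had all 3 marks, near the 59.9% of all genes, among them Col1a2, Cxcl12, Kdr, Emcn and Tie1, and Lepr had H3K4me1 and H3K4me3, Stab2 H3K4me1 alone, and Pdgfra and Bglap no mark. Vwf, a gene of the erythroid and megakaryocyte list, had all 3 marks at an annotated end. Of the 9 stromal and endothelial genes without a listed start, 5 did so too (Col1a1, Pdgfrb, Sp7, Pecam1 and Vcam1). Dcn and Plvap had H3K4me1 and H3K4me3 there, Lum H3K4me1 alone and Cdh5 no mark.

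Developmental regulators of other tissues mostly had H3K4me1 and H3K4me3 without acetylation. Of 27 with a listed start, 21 had H3K4me1 and H3K4me3 without H3K27ac, beside 6.45% of all genes, and 26 had H3K4me3, beside 67.1%. They include the neural genes Pax6, Sox1, Sox2, Neurog1, Neurog2, Olig2, Otx2 and En1, and Hand2, Isl1, Cdx2 and Gsc of heart, gut and early embryo. Foxa1, Foxa2, Dlx1, Dlx2 and Eomes had all 3 marks and Nkx2-5 had none. The H3K27ac pileup of these genes with all 3 marks was 37, 20, 19, 19 and 21 in that order, against a median of 65 over all genes with a peak. At Otx2 the H3K4me3 covered 32 bp of the window. Of the 16 without a listed start, 9 had H3K4me1 and H3K4me3 at an annotated end and 5 had all 3 marks. At Pax6 the window held 1582 bp of H3K4me1 in replicate 2, 1441 bp in replicate 1, 1226 bp of H3K4me3 and no H3K27ac. At Sox2 it held 1838, 1684, 1592 and 0 bp. H3K4me3 covered a median of 1221 bp of the window at these genes, yet its median pileup was 110.5, against 271 over all genes with a peak, and their loci had a median of 0.939 distal acetylated regions per 100 kb, against 2.36. H3K27me3, the Polycomb mark known to lie with H3K4me3 on such genes in other stem cells, was not analysed here. Hlf, Hoxa9 and Nkx2-3 shared their combination at the start but not their surroundings, with 6.48, 3.84 and 9.66 distal acetylated regions per 100 kb.

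Terminal genes of other tissues were mostly bare. Of 27, 24 had no mark, beside 28.3% of all genes, among them Alb and Apoa1 of liver, Ins1 and Gcg of pancreas, Krt5 and Krt14 of skin, Myh6 of heart, and Prm1 of sperm. Myh7 and Vil1 had H3K4me1 alone, and Syt1, a synaptic gene, had all 3 marks. The H3K27ac pileup at Syt1 was 19 on a background of 4.77, the most frequent value in that library. At an annotated end, Ins2 had no mark, Myod1 had H3K4me1 and H3K4me3, and Sftpc and Scgb1a1 had all 3 marks.

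**Figure D5:**
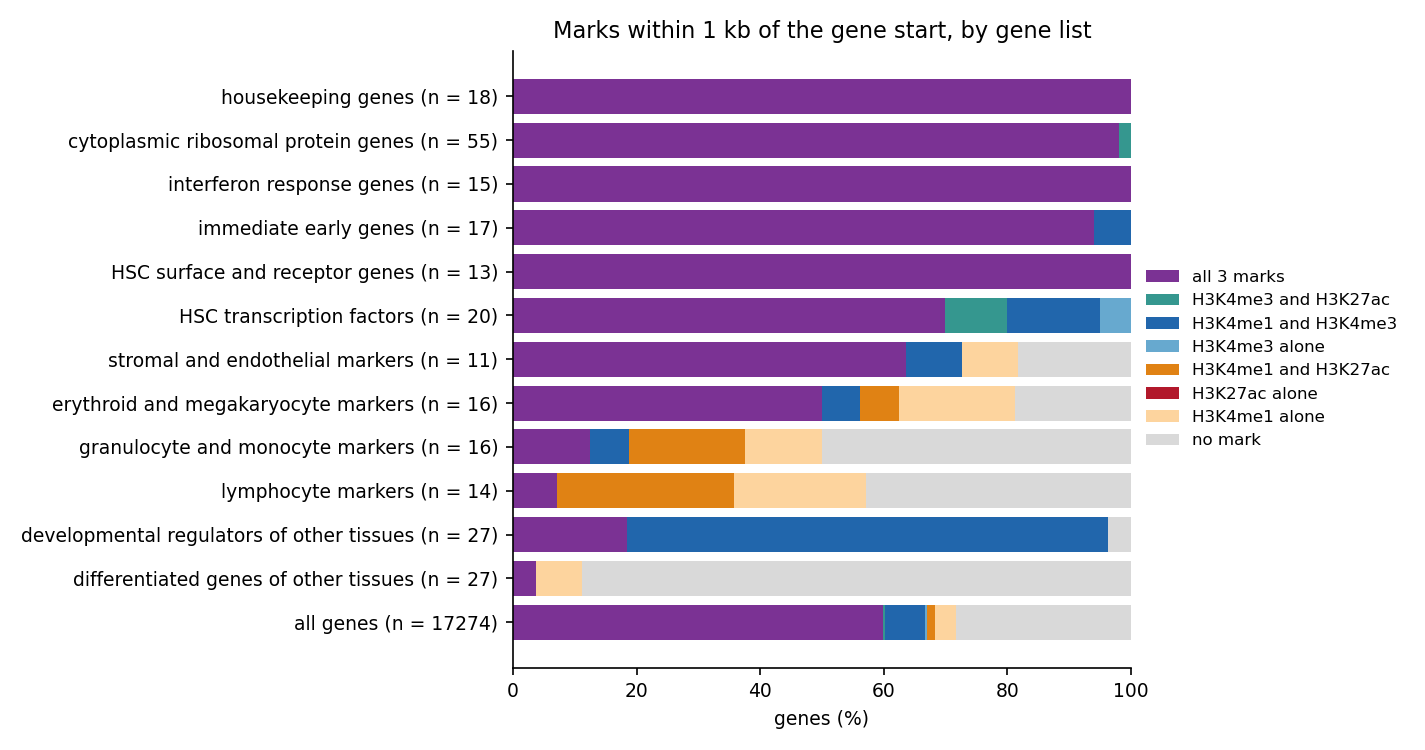
Share of the genes of each list (horizontal axis, %) by the marks within 1 kb of the start, with the number of genes beside each name; the bottom bar is all 17274 genes. Developmental regulators are mostly blue (H3K4me1 and H3K4me3, 21 of 27), differentiated genes mostly grey (no mark, 24 of 27), and housekeeping genes all purple (all 3 marks, 18 of 18).

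The X chromosome held 2.47% of all regions, 1.97% of those with all 3 marks, 1.67% of those with H3K4me1 and H3K27ac, 2.82% of those with H3K4me1 alone, 5.07% of those with H3K4me3 and H3K27ac and 7.56% of those with H3K4me3 alone, beside 4.56% of coding starts. The sex of the pooled mice was not used here, and whether it bears on these shares was not tested.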

How the data were processed

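Peaks were called with MACS3 after trimming with cutadapt 1.7.1 and alignment with Bowtie2 2.2.5 to mm10, per the submitters' processing notes. For the MACS3 version, and for how controls, spike-in or duplicates were handled, the answer is not given in the sources used here. As deposited by the authors, there was 1 peak list per library, with a fold enrichment ratio at the summit and the -log10 p and -log10 q of each peak. The pileup and local background were computed from fold and -log10 p (fold is pileup plus 1 over background plus 1, with a Poisson p), and the pileup was whole within 0.05 fragments for 100% of peaks. Depth is unknown.

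Peaks of the 3 marks were merged at 1 bp overlap. Gene starts came from RefSeq (GRCm38.p6), without chromosome 18. A mark was at a start if a peak lay within 1 kb, and distal regions lay further than 1 kb from every start. A gene took its start with the most marks, and 4357 coding genes without a listed start were described at an annotated end. At 89.0% of genes the better end gave the combination of the start. The regions named were the 3 of highest -log10 q and the 3 longest of each combination, and the genes named came from 12 lists. Some genes that these rules take are not reported here. The combinations, lists and rules were chosen with earlier results of these data known. No test was made, since H3K4me3 and H3K27ac have 1 library each. The code was tested on simulated data (python 3.11.15, numpy 2.4.6, pandas 2.3.3, matplotlib 3.10.9). Alternatives were the other H3K4me1 library, H3K4me1 called in both, a fold of at least 4, a -log10 q of at least 5, equal peak numbers, a mark over 20% of the region, and other windows.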

Additional observations from a re-analysis of the deposited data

How the results depend on the processing

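Of 151 values (counts, medians, percentages and a density) recomputed under another setting, 117 stayed within 1.5 times the value reported and 34 did not. At a fold of at least 4 there were 34409 regions with H3K4me1 alone, 856 with H3K27ac alone, 5040 with H3K4me3 alone, 8709 with H3K4me1 and H3K27ac, 2630 with H3K4me3 and H3K27ac and 21325 with all 3 marks. The distal regions then numbered 12403 with all 3 marks, 8239 with H3K4me1 and H3K27ac and 32715 with H3K4me1 alone, and 1707 genes had H3K4me1 and H3K4me3 at the start. At that fold all 3 marks were at 1 HSC transcription factor, 1 HSC surface gene, 0 granulocyte and monocyte genes, 4 stromal and endothelial genes, 0 developmental regulators, 0 differentiated genes, 33 ribosomal protein genes, 6 immediate early genes and 8 interferon response genes. With the same number of peaks per mark all 3 marks led with 26432 regions, and there were 8055 regions with H3K4me1 alone, 4473 with H3K27ac alone, 8150 with H3K4me3 alone, 7653 with H3K4me1 and H3K27ac and 7256 with H3K4me3 and H3K27ac. The distal regions were then 7283 with H3K4me1 and H3K27ac and 7608 with H3K4me1 alone, and 136 genes had H3K4me1 alone at the start. With replicate 1 in place of replicate 2 there were 2565 regions with H3K27ac alone and 677 with H3K4me3 and H3K27ac. With H3K4me1 required in both libraries there were 2764 regions with H3K27ac alone, 1547 with H3K4me3 alone and 821 with H3K4me3 and H3K27ac. A -log10 q of at least 5 left 451 regions with H3K27ac alone, and a mark over at least 20% of the region gave 496 with H3K4me3 and H3K27ac. The windows of 500 bp and 2 kb and the distal limit of 5 kb moved no value by more than 1.5 times. Beyond the fewer peaks that the stricter settings keep, the cause was not tested. No paired analysis was possible because H3K4me3 and H3K27ac have 1 WT library each and no genotypes were compared.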
